A study of Mus musculus with 3 samples.

Results

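The genes described here encode enzymes of heme synthesis (Alas1, Alas2, Alad, Uros, Urod, Cpox, Ppox and Fech) and heme oxygenase 1 (Hmox1), which breaks heme down. These 9 genes were taken by name, not by their values, from the 15058 genes listed for the series. They do not cover every step of the pathway. Total RNA was sequenced from erythroblasts, precursors of red cells that still hold a nucleus, sorted at E10.5 from the pooled peripheral blood of several mouse embryos. There were 3 libraries, 1 in each of 3 groups. The first held CD71+ Ter119-high cells of Drosha fl/fl;cdh5-cre+ embryos (cKO), whose label gives Drosha as null, called the Drosha-null library. The second held CD71+ Ter119-low cells of cKO embryos of the same genotype, whose label gives Drosha at the wild-type level, called the Ter119-low library. The third, the control, held CD71+ Ter119-high cells of embryos labelled Drosha fl/fl or Drosha fl/+ without the Cre. All groups carry a floxed Drosha allele, and the control mixes both genotypes. CD71 is the transferrin receptor, and Ter119 is an antigen of the red-cell surface whose level climbs with maturation. Cdh5 is an endothelial gene, so Cre acts in endothelial cells and in the blood cells that arise from them.

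Heme synthesis begins in the mitochondrion, where 5-aminolevulinate synthase joins glycine and succinyl-CoA. Alas2 is the erythroid form of this enzyme, encoded on the X chromosome, and Alas1 is the form of other tissues. The middle steps take place in the cytosol. Alad joins aminolevulinate molecules into porphobilinogen, Uros closes a linear tetrapyrrole into the ring of uroporphyrinogen III, and Urod removes carboxyl groups from its side chains. The last steps return to the mitochondrion, where Cpox and Ppox oxidise the ring to protoporphyrin IX and Fech inserts iron. In erythroblasts nearly all of this heme goes into hemoglobin.

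The promoters of 3 members are shown because Alas2 and Cpox were the most abundant members and because Cpox and Urod had the ratios farthest apart among the 8 synthesis genes between the Drosha-null library and the control. Each runs from 250 bases before to 30 bases after the start site of RefSeq (GRCm38.p6) on the gene's strand. Capitals mark matches to the GATA motif (AGATAA or TGATAA, either strand) or to CCAAT (either strand). The windows are chrX:150547167-150547446 (plus strand) for Alas2, chr16:58669958-58670237 (plus strand) for Cpox and chr4:116994384-116994663 (minus strand) for Urod.
Alas2: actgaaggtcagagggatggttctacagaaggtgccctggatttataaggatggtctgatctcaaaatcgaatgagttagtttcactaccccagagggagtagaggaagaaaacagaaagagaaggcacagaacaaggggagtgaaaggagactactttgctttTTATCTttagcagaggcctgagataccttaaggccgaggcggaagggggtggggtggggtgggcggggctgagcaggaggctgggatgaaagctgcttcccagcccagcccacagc
Cpox: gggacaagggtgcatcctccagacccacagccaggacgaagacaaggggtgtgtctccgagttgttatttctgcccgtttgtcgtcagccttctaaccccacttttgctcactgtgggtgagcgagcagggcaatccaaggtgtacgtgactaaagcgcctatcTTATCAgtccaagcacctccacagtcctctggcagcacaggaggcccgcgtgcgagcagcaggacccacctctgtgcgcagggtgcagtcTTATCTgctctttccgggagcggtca
Urod: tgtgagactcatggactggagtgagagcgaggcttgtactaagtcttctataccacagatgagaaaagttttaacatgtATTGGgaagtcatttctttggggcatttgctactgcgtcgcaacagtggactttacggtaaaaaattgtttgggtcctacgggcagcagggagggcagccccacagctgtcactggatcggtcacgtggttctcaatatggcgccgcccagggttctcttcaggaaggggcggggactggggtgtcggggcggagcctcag

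GATA1 and KLF1 are the transcription factors best known for driving erythroid genes through such motifs. The Alas2 window held 1 GATA match, at position -86, and the Cpox window held 2, at -86 and 5, counted from the start site to the leftmost base. Over all 32851 RefSeq windows of 300 bases (250 before and 50 after the start), 18.6% held a GATA match and 37.4% a CCAAT match. The KLF motif CCNCNCCC (either strand) matched at 4 partly overlapping positions in the Alas2 window, at 1 in the Cpox window and at 1 in the Urod window. It was present in 49.5% of all windows. Among the 7 members with a window, 1 of 2 Uros windows also held a GATA match, and no window of Alas1, Alad, Urod or Ppox did. The Alas1 windows held a pair of overlapping matches to GCATGCGC, the motif of nuclear respiratory factor 1 (either strand), which was present in 2.71% of all windows. These matches describe letters in the reference sequence, and no binding was measured.

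The Alas2 messenger also carries, in its 5' UTR, an iron-responsive element, the hairpin through which iron regulatory proteins hold back its translation when iron is scarce. A search of the transcript (GENCODE M21, GRCm38) for a bulged C, a stem of 5 base pairs and a loop beginning CAGTG found the element once, in exon 1 at chrX:150547458-150547485 on the plus strand. Its 28 bases are shown with the loop in capitals.
Alas2 element: ttggttcgtcctCAGTGCagggcaacag
The first exon of Alas2 lies opposite an annotated microRNA gene, Mir3620, at chrX:150547385-150547445 on the minus strand. Whether reads were counted by strand is not given in the sources used here, so reads from that strand cannot be told apart from those of Alas2 in this stretch.

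The libraries were of similar depth, from 9325814 to 9497425 counts. Ribosomal RNA took 27.9% to 28.7% of the counts. Globin genes took 17.1% in the Drosha-null library, 23.1% in the Ter119-low library and 25% in the control. Drosha itself had 122 counts in the Drosha-null library, 244 in the Ter119-low library and 324 in the control. Scaled, this was a log2 ratio to the control of -1.81 (95% counting interval -2.13 to -1.51) in the Drosha-null library and -0.49 (-0.74 to -0.25) in the Ter119-low library, whose label gives a level like wild type. The erythroid markers Slc4a1, Gata1 and Klf1 were present in every library, with 25880, 729 and 1124 counts in the Drosha-null library, 44906, 628 and 1279 in the Ter119-low library and 45014, 632 and 1260 in the control. With 1 library per group there was no replicate error and no test across conditions. Every interval below covers counting error alone, and reads carry no molecular identifiers, so intervals are too narrow for a difference between embryos or preparations.

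Levels were compared between genes as FPKM, reads corrected by the authors for gene length and library size. Cpox and Alas2 stood at the top of the pathway in every library. Cpox was at 420.81 FPKM in the Drosha-null library and 421.78 FPKM in the Ter119-low library, against 376.43 FPKM in the control. Alas2 was at 347.25 and 387.97 FPKM in these cKO libraries, against 405.87 FPKM in the control. Among all genes ordered by FPKM, Alas2 ranked 133 in the Drosha-null library, 127 in the Ter119-low library and 129 in the control. The order of the leading pair was Cpox above Alas2 in both cKO libraries and Alas2 above Cpox in the control. The ratio of Cpox to Alas2 FPKM was 1.21 (95% counting interval 1.18 to 1.25) in the Drosha-null library and 1.09 (1.06 to 1.12) in the Ter119-low library, and 0.927 in the control. In the control the reverse ratio, Alas2 over Cpox, was 1.08 (1.05 to 1.11).

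Fech, the iron-inserting last enzyme, and Urod came next in every library. Fech was at 168.1 FPKM in the Drosha-null library and 198.25 FPKM in the Ter119-low library, against 172.08 FPKM in the control. Urod was at 146.0 FPKM in the Drosha-null library and 209.67 FPKM in the Ter119-low library, against 188.05 FPKM in the control. Fech was thus above Urod in the Drosha-null library alone, by a ratio of 1.15 (1.09 to 1.22). Alad, Uros and Ppox followed at lower levels. Alad was at 39.98 and 53.06 FPKM in the Drosha-null and Ter119-low libraries, against 47.81 FPKM in the control. Alad and Uros could not be ordered in the Drosha-null library (ratio 1.04, 0.951 to 1.15) or in the control (1.08, 0.99 to 1.17). Ppox, the least abundant of these, lay between 31.11 and 33.83 FPKM.

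The non-erythroid synthase and the oxygenase were close to the limit of detection. Alas1 had 29 counts in the Drosha-null library and 16 in the Ter119-low library, against 32 in the control, or 1.18, 0.64 and 1.28 FPKM in that order. Per length, Alas2 exceeded Alas1 by 294 times in the Drosha-null library, 606 times in the Ter119-low library and 317 times in the control. Hmox1 had 3 counts in the Drosha-null library, 6 in the Ter119-low library and 7 in the control. This put it below 1 CPM (counts set to a common scaled library size) in every library, the limit for a gene to enter a comparison, so 8 of 9 members were measured. Macrophages, which are rich in Hmox1, were represented by 68 summed counts over 12 marker genes in the Drosha-null library, 27 in the Ter119-low library and 54 in the control, with Cd163, C1qa and Aif1 at 0 in all 3. At this depth no difference in Hmox1 was detectable.

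**Figure D1:**
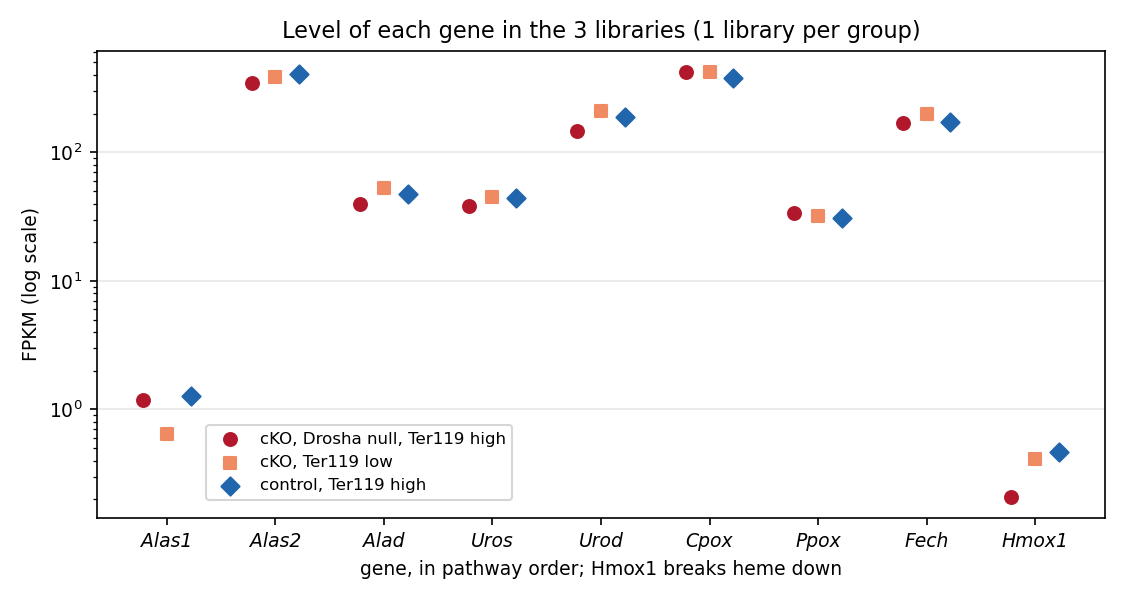
Level of the 9 genes in FPKM on a log scale, in pathway order, with 1 point for each library (Drosha-null, Ter119-low and control from left to right). Cpox and Alas2 lie between 347.25 and 421.78 FPKM in all 3 libraries, and Alas1 and Hmox1 at or below 1.28 FPKM.

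The Drosha-null library and the control, both Ter119 high, differ by genotype at the same gate. For ratios between libraries, counts were scaled by TMM, which sets the trimmed mean of the log ratios over all genes to 0. A gene was called when its ratio was 2 or more in either direction with an interval that excluded 1. By this rule 20.2% of 10769 measured genes were called, 12.4% as higher and 7.79% as lower, and 0 of the 8 measured members were called. At a ratio of 1.5 in place of 2, 17.6% of all measured genes were called as lower, and 4 of the 8 members (Alas2, Alad, Uros and Urod). All 8 members had negative log2 ratios, with a median of -0.60, beside a median of -0.02 over all measured genes and of -0.19 over the 1140 genes at 100 or more CPM. The size of these ratios depends on the scaling. Under scaling by total counts every ratio moves up by 0.43, the members' median becomes -0.16, and Cpox (0.16) and Ppox (0.12) turn positive. In a bulk library, fewer cells of a type and less RNA per cell cannot be told apart.

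The members did not differ equally. Urod, the cytosolic decarboxylase, had 1538 counts in the Drosha-null library, against 2023 in the control, a log2 ratio of -0.80 (-0.90 to -0.71). Alad, which makes porphobilinogen, had 1651 counts in the Drosha-null library, against 2018 in the control (log2 ratio -0.70, -0.79 to -0.60). Alas2 had 6172 counts in the Drosha-null library, against 7368 in the control (log2 ratio -0.66, -0.71 to -0.61). These intervals and that of Uros (log2 ratio -0.65, -0.80 to -0.49) also lay below 0 under total-count scaling, where the log2 ratios were -0.37 for Urod, -0.26 for Alad, -0.23 for Alas2 and -0.21 for Uros. The first erythroid step and the 3 cytosolic members thus had fewer counts in the Drosha-null library by either scaling.

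By these ratios, not corrected for gene length, the late mitochondrial enzymes lay closer to the control. Fech had 4445 counts in the Drosha-null library, against 4640 in the control (log2 ratio -0.47, -0.53 to -0.41, and -0.04 under total-count scaling). Ppox, which makes protoporphyrin IX, had 553 counts in the Drosha-null library, against 519 in the control (log2 ratio -0.32, -0.49 to -0.14, and 0.12 under total-count scaling). Cpox had 12248 counts in the Drosha-null library, against 11172 in the control. Its log2 ratio was -0.27 (-0.31 to -0.24) under TMM and 0.16 (0.12 to 0.20) under total-count scaling, so its direction is set by the scaling. For Alas1, with 29 counts in the Drosha-null library and 32 in the control, the interval held 0 (log2 ratio -0.55, -1.33 to 0.22).

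Gene length moved with this comparison over all genes. In 10 classes of measured genes by length, the median log2 ratio of the Drosha-null to the control library ran from -0.59 for the shortest class to 0.29 for the longest. All 8 members lay below the median of their own class. This median was 0.16 for Alad, 0.01 for Fech and Alas1, and -0.01 for Cpox. It was -0.15 for Alas2, Uros and Ppox and -0.28 for Urod, the shortest member. Fech (log2 ratio -0.47) lay about as far below its class median as Alas2 (-0.66), Uros (-0.65) and Urod (-0.80) did below theirs. Some markers of other cells were more abundant in the Drosha-null library. The 10 endothelial markers summed to 23.6 CPM there, against 11.1 CPM in the control, with all 10 above 0 in both. The 6 cardiac muscle markers summed to 26.2 CPM, against 8.81 CPM, with 4 above 0 in each library (Nkx2-5 at 0 in both, Myh6 at 0 in the Drosha-null library and Myh7 in the control). Most cardiac counts were of Ttn (181 in the Drosha-null library, against 37 in the control) and Actc1 (86 against 19). Once scaled, Tnnt2 (20 counts against 16), Myh6 (0 against 2) and the endothelial Kdr (26 against 22) were not higher in the Drosha-null library. The 12 macrophage markers summed to 6.1 CPM in the Drosha-null library, against 6.43 CPM in the control. The 6 hepatocyte markers had 4 counts, all of Ttr, in the Drosha-null library, against 0 in the control. The part of gene length and of any such cells in the members' ratios was not tested.

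**Figure D2:**
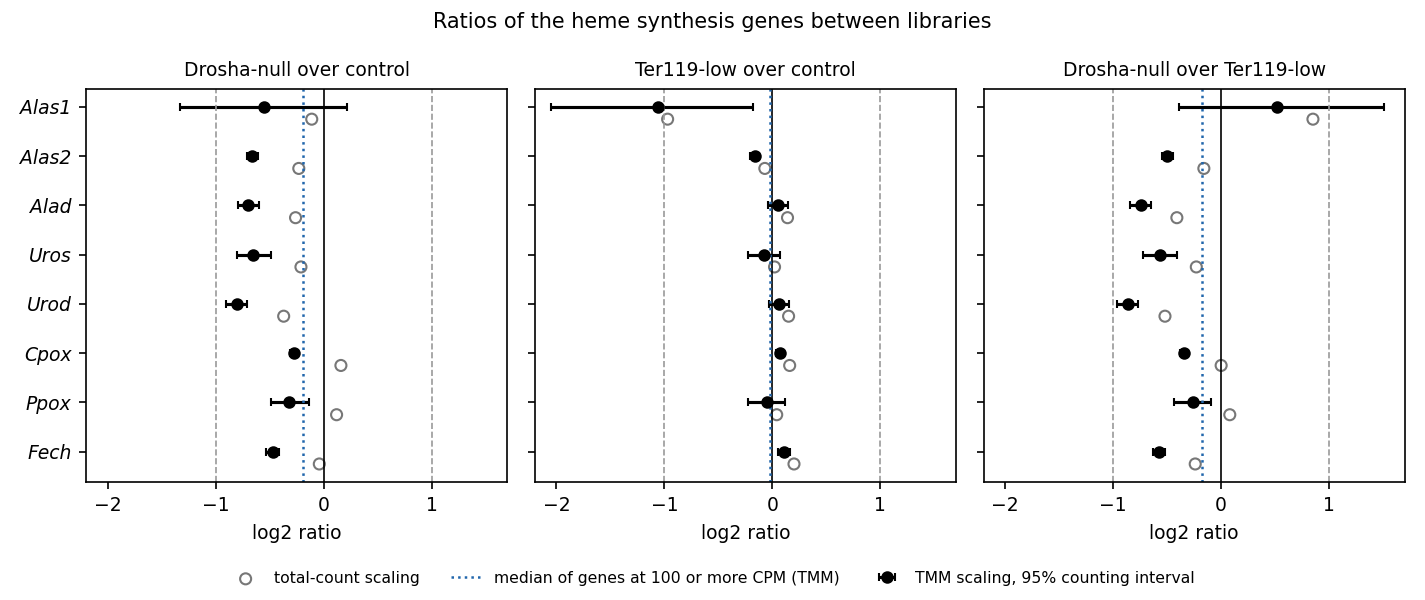
Log2 ratios of the 8 measured members in the 3 comparisons. Filled points are TMM-scaled ratios with 95% counting intervals, open circles the same ratios under total-count scaling, the dotted line the median of genes at 100 or more CPM, and dashed lines the ratio of 2. All 8 filled points lie below 0 for Drosha-null over control, and Cpox and Ppox have open circles above 0.

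The Ter119-low library and the control differ in genotype and in the Ter119 gate together, and these cannot be told apart. Over all 10591 measured genes 5.66% were called, 2.9% as higher and 2.76% as lower. Of the 8 measured members 1 was called, Alas1, with 16 counts in the Ter119-low library and 32 in the control (log2 ratio -1.06, -2.05 to -0.18). It rests on few counts, and under total-count scaling its log2 ratio was -0.97 and it was not called. The other 7 lay within -0.16 and 0.11, and the members' median was 0.00, as was that of all measured genes. Alas2 had 6977 counts in the Ter119-low library, against 7368 in the control (log2 ratio -0.16, -0.21 to -0.12, and -0.07 under total-count scaling). Cpox had 12407 counts in the Ter119-low library, against 11172 in the control (log2 ratio 0.07, 0.03 to 0.10). Fech had 5298 counts in the Ter119-low library, against 4640 in the control, a log2 ratio of 0.11 (0.05 to 0.16). At a ratio of 1.5, 4.9% of all measured genes were called as lower, and again 1 member. Endothelial markers summed to 11.3 CPM in the Ter119-low library, against 11.1 CPM in the control, and cardiac markers to 6.06 CPM, against 8.81 CPM in the control. Macrophage markers summed to 3.03 CPM in the Ter119-low library, with 4 of 12 above 0, against 6.43 CPM in the control, with 8 of 12 above 0. The part of these cells in the members' ratios was not tested. Under total-count scaling the members' median was 0.09 and Uros (0.02) and Ppox (0.04) turned positive.

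The Drosha-null and Ter119-low libraries share their genotype label and differ in the Ter119 gate and in the labelled Drosha level, and these cannot be told apart. Of 10795 measured genes 16.8% were called, 10.8% as higher and 5.94% as lower, and 0 of the 8 members were called. The members' median log2 ratio was -0.53, beside -0.02 over all genes and -0.18 over genes at 100 or more CPM, and 7 of 8 had intervals below 0 under TMM. Under total-count scaling the median was -0.20, and 5 had intervals below 0. At a ratio of 1.5, 14.8% of all measured genes were called as lower, and 2 of the 8 members (Alad and Urod). Urod had 1538 counts in the Drosha-null library, against 2233 in the Ter119-low library, and the most negative log2 ratio of the measured members, -0.86 (-0.96 to -0.77). Alad (1651 counts in the Drosha-null library, against 2212) followed at -0.74. Cpox was at -0.34 (-0.38 to -0.31) under TMM and at 0.00 under total-count scaling, since the counts were nearly equal, and Ppox was at -0.26 and 0.08. Alas1 was the member above 0 under TMM, at 0.52 (-0.39 to 1.51), with an interval that held 0. All 3 comparisons reuse the same libraries, so their values are not independent.

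Shares within the pathway do not depend on the scaling of the libraries, but they are not corrected for gene length. The 8 synthesis genes summed to 27259 counts in the Drosha-null library and 30411 in the Ter119-low library, against 28508 in the control. Cpox made up 44.9% (95% interval 44.3% to 45.5%, Clopper-Pearson) of these counts in the Drosha-null library and 40.8% (40.2% to 41.4%) in the Ter119-low library, against 39.2% (38.6% to 39.8%) in the control. Alas2 made up 22.6% (22.1% to 23.1%) in the Drosha-null library and 22.9% (22.5% to 23.4%) in the Ter119-low library, against 25.8% (25.3% to 26.4%) in the control. So Cpox took a larger and Alas2 a smaller share in both cKO libraries than in the control, beyond counting error. Shares of one total are linked, since a larger share of one gene lowers those of the rest.

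Urod and Alad took smaller shares in the Drosha-null library than in either other library. Urod made up 5.64% (5.37% to 5.92%) there and 7.34% (7.05% to 7.64%) in the Ter119-low library, against 7.10% (6.80% to 7.40%) in the control. Alad made up 6.06% in the Drosha-null library and 7.27% in the Ter119-low library, against 7.08% in the control. Fech made up 16.3% in the Drosha-null library and 17.4% in the Ter119-low library, against 16.3% in the control. The ratio of Cpox to Urod counts, set between libraries, was higher in the Drosha-null library than in the control by 0.53 on the log2 scale (0.43 to 0.63), and for the Ter119-low library the same value was 0.01 (-0.09 to 0.10). The ratio of Cpox to Alas2 was higher by 0.39 (0.33 to 0.45) in the Drosha-null library and by 0.23 (0.17 to 0.29) in the Ter119-low library than in the control. For the Drosha-null library over the control, the length-class medians were -0.01 for Cpox, -0.15 for Alas2 and -0.28 for Urod. The part of gene length in the shares and in these ratios was not tested.

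The pathway was also set against its main protein partner, globin. For each 1000 counts of the embryonic globins (Hba-x, Hbb-y and Hbb-bh1) there were 17.8 counts of the synthesis genes in the Drosha-null library and 14.6 in the Ter119-low library, against 12.6 in the control. On the log2 scale this ratio was above the control by 0.50 (0.48 to 0.53) in the Drosha-null library and by 0.22 (0.19 to 0.24) in the Ter119-low library. The embryonic globins are short genes, in the length class with a median of -0.59 for the Drosha-null library over the control. The class medians of Cpox, Alas2 and Fech were -0.01, -0.15 and 0.01. The part of gene length in the ratio of enzyme to globin counts was not tested. As a share of all counts, the synthesis genes took 0.292% in the Drosha-null library and 0.323% in the Ter119-low library, against 0.300% in the control. Embryonic globin counts were 1528842 in the Drosha-null library and 2081164 in the Ter119-low library, against 2267927 in the control.

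**Figure D3:**
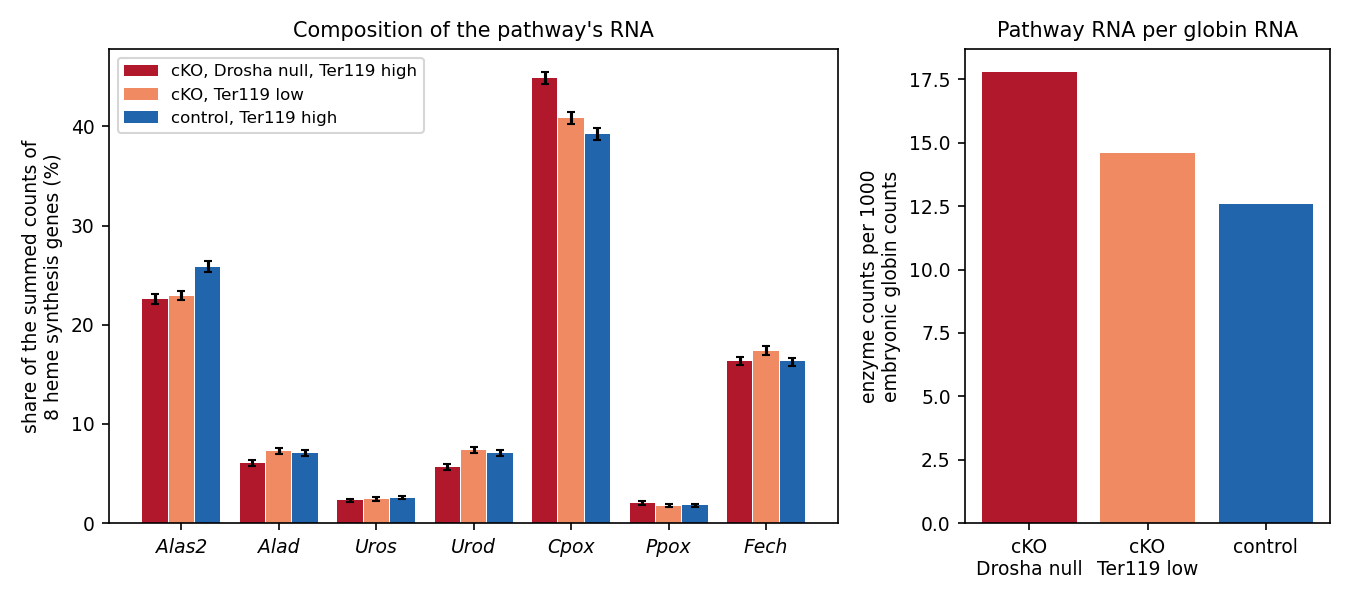
Left, share of each gene in the summed counts of the 8 synthesis genes, in percent with 95% Clopper-Pearson intervals (Alas1, at most 0.112%, is left out). Right, counts of the synthesis genes per 1000 embryonic globin counts. Cpox makes up 44.9% in the Drosha-null library and 39.2% in the control, and the bars on the right are 17.8, 14.6 and 12.6.

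The genes around the pathway were described in 10 lists, for the Drosha-null library over the control. Over all measured genes 20.2% were called under TMM, 12.4% as higher and 7.79% as lower, and the median was -0.02. Total-count scaling moves every ratio up by 0.43, those of all other genes included. The share called and the median over all genes under that scaling are not given here. List values under total-count scaling therefore have no background beside them. The carriers and transporters that bring iron, glycine and porphyrin across the mitochondrial membranes held 4 of 10 measured genes called as lower and 0 as higher, with a median of -0.76 (-0.33 under total-count scaling). Slc25a37 (mitoferrin 1), which imports iron into the mitochondria of erythroblasts, had 10429 counts in the Drosha-null library and 28821 in the Ter119-low library, against 29361 in the control. Between the Drosha-null and control libraries its log2 ratio was -1.90 (-1.93 to -1.87), and -1.47 under total-count scaling. Slc25a38, the mitochondrial glycine carrier, had 145 counts in the Drosha-null library and 255 in the Ter119-low library, against 314 in the control, and was also called under both scalings (-1.52, and -1.09). Slc25a39, a carrier of glutathione, was at -1.25, and Tmem14c, which passes protoporphyrinogen IX to the matrix, at -1.38. These last 2 were not called under total-count scaling (-0.82 and -0.95). Among the 10 genes, 9 lay below the median of their length class.

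Iron-sulfur cluster assembly, which supplies the cluster of Fech and competes with it for mitochondrial iron, held 6 of 15 genes called as lower and 1 as higher, with a median of -0.78 (-0.35 under total-count scaling). These are short genes, and the median of their length classes was -0.59, with 12 of 15 below their class median. Fdx1l, the ferredoxin of cluster synthesis, had 103 counts in the Drosha-null library and 304 in the Ter119-low library, against 324 in the control (log2 ratio to the control -2.06 in the Drosha-null library, and -1.62 under total-count scaling). Its relative Fdx1 was the gene called as higher, with 60 counts in the Drosha-null library and 11 in the Ter119-low library, against 16 in the control (log2 ratio 1.47 in the Drosha-null library). Lyrm4 (-1.33), Bola3 (-1.12), Glrx5 (-1.10) and Iscu (-1.04) were also called as lower. So was Isca1, at the limit of the rule, with 589 counts in the Drosha-null library and 884 in the Ter119-low library, against 889 in the control. None of these 5 was called under total-count scaling. Fdxr, the reductase that feeds these ferredoxins, was the 1 gene of the 10 lists called for the Ter119-low library over the control. It had 43 counts in the Ter119-low library, against 17 in the control (log2 ratio 1.23, 0.41 to 2.16). Over all genes of that comparison 2.9% were called as higher.

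The supply of glycine and succinyl-CoA, the substrates of Alas2, held 2 of 9 genes called as lower and 0 as higher. Its median was -0.11 under TMM and 0.32 under total-count scaling. Both called genes exchange serine and glycine. Shmt2, the mitochondrial form, had 1129 counts in the Drosha-null library and 1571 in the Ter119-low library, against 1849 in the control (log2 ratio to the control -1.12 in the Drosha-null library, and -0.69 under total-count scaling, not called). Shmt1, the cytosolic form, was at -1.09 (-0.65 under total-count scaling, not called), with 96 counts in the Drosha-null library and 172 in the Ter119-low library, against 154 in the control. Synthesis of heme A, the heme of cytochrome oxidase, was represented by 2 genes. Cox10, its first enzyme, was called as higher, with 236 counts in the Drosha-null library and 80 in the Ter119-low library, against 69 in the control (log2 ratio 1.36 in the Drosha-null library, 0.97 to 1.78), also under total-count scaling (1.79). Cox15, which acts after it, was at 0.53.

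Heme export, import and binding held 1 of 7 genes called as higher and 0 as lower, with a median of -0.40 (0.03 under total-count scaling). The called gene, the heme-binding protein gene Hebp2, had 17 counts in the Drosha-null library and 6 in the Ter119-low library, against 0 in the control. With the control set to a floor of 3 counts, the Drosha-null library was 4.27-fold higher. The lower limit of the counting interval of its log2 ratio was 1.64. Pgrmc1, a heme-binding membrane protein, had 103 counts in the Drosha-null library and 31 in the Ter119-low library, against 56 in the control. It was called between the cKO libraries (log2 ratio 1.39) and in neither against the control. Its log2 ratio to the control was 0.47 (-0.01 to 0.97) in the Drosha-null library. In the Ter119-low library it was -0.93 (-1.62 to -0.28). Heme breakdown other than Hmox1 held 0 of 3 genes called, with a median of 0.12 (0.55 under total-count scaling). Blvrb, a reductase of biliverdin abundant in red cells, had 3562 counts in the Drosha-null library and 2593 in the Ter119-low library, against 2479 in the control (log2 ratio 0.12 in the Drosha-null library, 0.04 to 0.19). Blvra, the other reductase of biliverdin, was at -0.20 (-0.61 to 0.20). The mitochondrial proteases that turn over the synthases (Clpp, Clpx and Lonp1) held 0 of 3 called, with a median of -0.16 (0.28 under total-count scaling), with Clpp at -0.96 and Lonp1 at -0.16.

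Sensors of heme and iron held 1 of 6 genes called as higher, with a median of 0.31 (0.74 under total-count scaling). This was Nr1d2, a heme-binding nuclear receptor, with 108 counts in the Drosha-null library and 30 in the Ter119-low library, against 16 in the control (log2 ratio 2.31 in the Drosha-null library, 1.58 to 3.20). The iron regulatory proteins that bind the element shown above were not called, and are named for that role after their values were seen. Aco1 was at 0.46 (0.11 to 0.81) and Ireb2 at 0.12 (-0.01 to 0.25). Targets of NRF2 and BACH1, the regulators that also act on Hmox1, held 1 of 10 genes called as higher and 1 as lower, with a median of -0.14 (0.29 under total-count scaling). Me1, malic enzyme, had 154 counts in the Drosha-null library and 20 in the Ter119-low library, against 21 in the control (log2 ratio 2.44 in the Drosha-null library). Nqo1, a quinone reductase, was at -1.10 with 19 counts in the Drosha-null library and 37 in the Ter119-low library, against 31 in the control. Under total-count scaling, for which no share over all genes is given, this list held 2 genes called as higher and 0 as lower. Nqo1 (-0.67, -1.59 to 0.19) lost its call and Slc40a1, the iron exporter, gained one (1.27).

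Among the embryonic globins 2 of 3 were called as lower in the Drosha-null library relative to the control, with a median of -1.11 (-0.68 under total-count scaling). Hbb-bh1 was at -1.70 (-1.27 under total-count scaling), Hbb-y at -1.11 (-0.68, not called) and Hba-x at -0.73. Each of the 8 measured members of heme synthesis had a ratio above those of Hbb-bh1, Hbb-y and Slc25a37, and all but Urod one above that of Hba-x. The counting interval of Alas1 (-1.33 to 0.22) held the ratios of Hbb-y and Hba-x. Those of Alad, Uros and Urod held that of Hba-x, so the order within these pairs is not resolved. The globins fall in the shortest length class, with a median of -0.59, and all 3 lay below it. The part of gene length in their distance from the members was not tested. Between the cKO libraries 16.8% of all genes were called, 10.8% as higher and 5.94% as lower. There the carriers and transporters again held 4 of 10 genes called as lower in the Drosha-null library, Slc25a37 at -1.79 among them. Under total-count scaling 1 of these remained, Slc25a37 at -1.45. Iron-sulfur cluster assembly held 4 of 15 called as lower and 1 as higher there, with Fdx1l at -1.88 and Fdx1 at 2.07. Under total-count scaling these were the genes of that list still called, 1 as lower and 1 as higher.

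**Figure D4:**
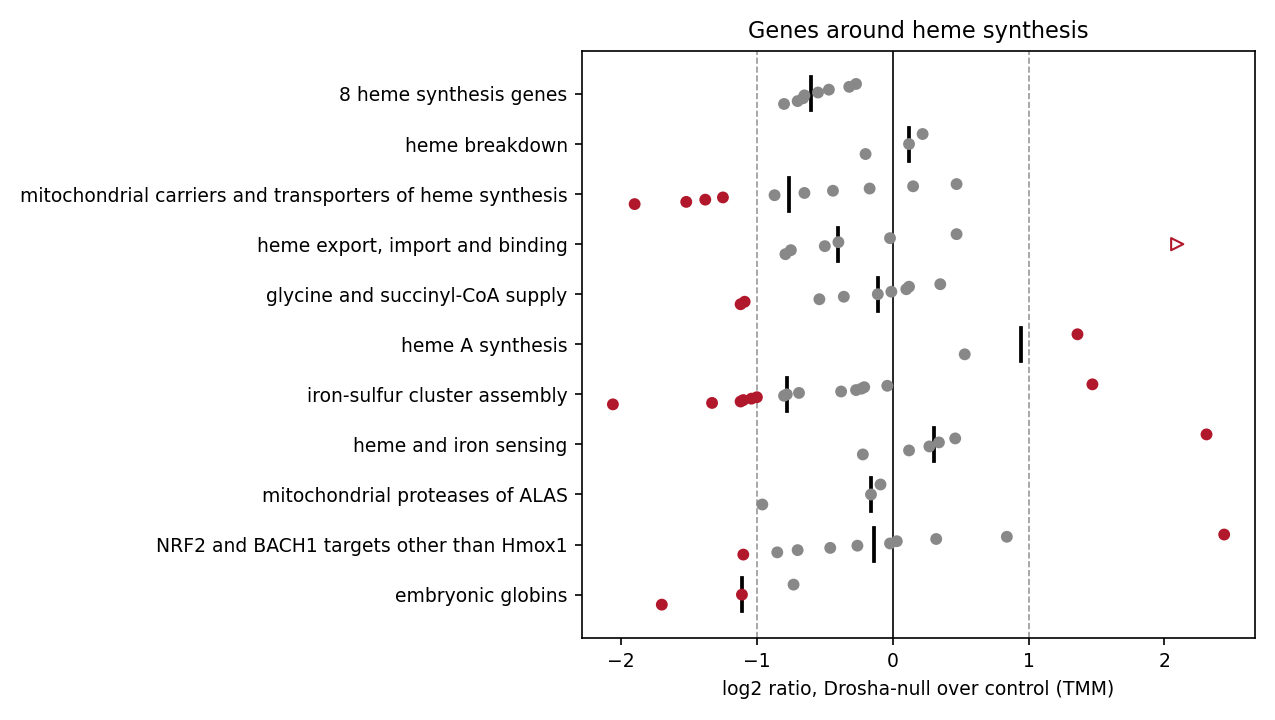
TMM-scaled log2 ratios, Drosha-null over control, for the 8 measured synthesis genes and the 10 lists, with 1 point per measured gene. Red points were called, grey points were not, black bars are medians, and the open triangle is the lower bound of Hebp2, which had 0 control counts. The synthesis genes run from -0.80 to -0.27 and include no called gene, and the lowest points belong to Fdx1l (-2.06) and Slc25a37 (-1.90).

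The genes most like Alas2 were taken as those with the smallest distance between their pair of log2 ratios to the control and that of Alas2 (-0.66 for the Drosha-null library and -0.16 for the Ter119-low one), among 3794 genes at 20 or more CPM in every library. They were Foxk2, Rps9, Agfg1, Ccnd2 and Gm20594, at distances of 0.006 to 0.022 on the log2 scale over these 2 pairs of libraries. The counting intervals of Alas2 (-0.71 to -0.61 and -0.21 to -0.12) are wider than these distances. The order of genes this close is therefore not resolved. The same rule for Hmox1 named Nop10, Cox7b, H19, Asns and BC003965, at distances of 0.071 to 0.165, but the ratios of Hmox1 rest on at most 7 counts a library.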

How the data were processed

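Total RNA was sequenced in 3 libraries, 1 per group by the labels, and the authors deposited 2 tables, one for each cKO library with the control. Expected counts (estimated reads of a gene, unscaled) and FPKM, with 0.001 at 0 counts, stand in these deposited tables, per the file headers. The deposited log2 ratio is that of the FPKM columns. Aligner, counting program, annotation and build were not given in the sources used here, and the tables (14640 and 14300 genes, 13882 shared, 0 with differing control counts) were joined by gene ID into 15058 genes, with 0 counts for a gene one table does not list, and expected counts were rounded. Those of the 9 genes were whole. The columns of per-sample values were all mapped.

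Counts were scaled by TMM (edgeR 4.0.16, R 4.3.3; factors 1.19 for the Drosha-null, 0.946 for the Ter119-low and 0.885 for the control library). Log2 ratios had 0.5 counts added and exact 95% Clopper-Pearson intervals, computed with Python 3.11.15, NumPy 2.4.6, SciPy 1.17.1 and pandas 2.3.3 and drawn with matplotlib 3.10.9. A gene was measured where either library had it at 1 or more CPM. The floor of 3 counts was 0.269, 0.337 and 0.357 CPM in the same order of libraries. The procedure was tested on simulated counts with known changes in a small set of genes and counting error alone. That simulation held no difference between preparations and no trend with gene length, so it does not bear on these. No test was possible with 1 library per group. Alternatives were scaling by total counts, by RLE size factors or by counts without globin and ribosomal RNA, 2 counts added, the authors' FPKM, other minimum levels and a ratio of 1.5.

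All 9 genes are reported. Some cell type markers are not reported here. From each list the genes called in any comparison are named, or otherwise the 2 most abundant. Tables list Fam210b, Flvcr1 and Flvcr2 of the lists under older symbols. The members and lists were chosen with earlier results of these data known. Promoters come from RefSeq tables (GRCm38.p6) and the Alas2 transcript from GENCODE M21 (GRCm38), and serve for sequence and location alone.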

Additional observations from a re-analysis of the deposited data

Results flagged for a closer look

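For 2 genes, Cpox and Fech, the cKO libraries lay on opposite sides of the control under TMM scaling with both counting intervals excluding 0. For Alad (-0.70 in the Drosha-null library, 0.05 in the Ter119-low one) and Urod (-0.80 and 0.06) the signs also differed, but the intervals of the Ter119-low library held 0. Cpox had a log2 ratio to the control of -0.27 in the Drosha-null library and 0.07 in the Ter119-low library, and the Drosha-null library stood at -0.34 against the Ter119-low library. Under total-count scaling both ratios to the control were 0.16, so the opposite signs of Cpox hold for TMM and not for that scaling. Fech had a log2 ratio to the control of -0.47 in the Drosha-null library and 0.11 in the Ter119-low library, with -0.58 between the cKO libraries. Under total-count scaling its ratios to the control were -0.04 (-0.10 to 0.02) and 0.20 (0.15 to 0.26). The interval of the Drosha-null library then held 0, so opposite sides of the control were not shown for Fech under that scaling either. Both ratios of each gene share the 1 control library, and with 1 library per group the difference was not tested.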

How the results depend on the processing

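RLE size factors and 2 counts added left the ratios of all 9 genes in all 3 comparisons within their counting intervals. Scaling by total counts changed the members' median to -0.16 (Drosha-null against control), 0.09 (Ter119-low against control) and -0.20 (Drosha-null against Ter119-low), and the sign of 2, 2 and 1 genes in that order. The authors' FPKM gave medians of -0.16, 0.10 and -0.19, and totals without globin and ribosomal RNA -0.41 and -0.38 for the comparisons of the Drosha-null library. With a ratio of 1.5 in place of 2, 4 members were called as lower in the Drosha-null library against the control, beside 17.6% of all measured genes. Against the Ter119-low library 2 were, beside 14.8%. The 1 call of the Ter119-low library against the control, Alas1, became 0 under total-count scaling and under a minimum of 10 CPM. No called ratio reversed. No paired analysis was possible because each group has 1 library, and no library could be left out. Depth limits Hmox1 (3 to 7 counts) and Alas1 (16 to 32 counts).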
